A study of Mus musculus with 18 samples.

Results

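The comparison asked whether loss of Nr2f6 changed the transcriptional response of tumor-infiltrating T cells to PD-L1 blockade. It used 12 of the 18 libraries, 3 in each of 4 groups: wild-type mice given the control antibody IgG2b, wild-type mice given an anti-PD-L1 antibody (aPDL1), Nr2f6-/- mice given IgG2b and Nr2f6-/- mice given aPDL1. These 12 were chosen because their library numbers form the only set that holds all 4 groups. The other 6 libraries, a second set of 3 wild-type and 3 Nr2f6-/- aPDL1 samples without IgG2b samples of their own, were kept out of the main test. All mice were on the C57BL/6 background, were 8 to 12 weeks old by the general methods of the study, and carried subcutaneous B16-OVA tumors grown from 500000 injected cells, B16-OVA being a mouse melanoma line that expresses ovalbumin. Antibody at 0.5 mg was given i.p. every few days from d3 and tumors were taken at d14. Wild-type and Nr2f6-/- mice differed in the germline, so Nr2f6 was missing from the tumor's host cells of every type and not from T cells alone. Bead-enriched CD4+ and CD8+ cells were combined before the CD3+ sort, and each library is a 3′ end profile of that mixture. The labels do not say that each library came from a separate mouse, so p-values measure the spread between these samples, which may in part be technical.

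NR2F6 is an orphan nuclear receptor that acts as a transcriptional repressor in T cells, where it is known for holding back cytokine genes driven by NFAT and AP-1. PD-L1 on tumor and myeloid cells engages PD-1 on T cells and dampens signaling from the T cell receptor, and an antibody to PD-L1 lifts that restraint. A gene that both pathways restrain could respond to blockade differently when NR2F6 is absent, which is what an interaction between genotype and treatment measures.

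The response in a genotype is the difference of the mean log2(normalized count + 1) between aPDL1 and IgG2b. The interaction is the Nr2f6-/- response minus the wild-type response, so a positive value means that blockade raised a gene more, or lowered it less, in Nr2f6-/- than in wild-type mice. Of 37236 genes in the table, 11990 averaged 10 or more normalized counts over the 12 libraries and were tested. Reads on genes ranged from 12473391 to 17746592 per library, and 3 reads, the floor, correspond to between 2.49 and 3.64 normalized counts. The median standard error (SE) of the interaction was 0.97 on the log2 scale over all tested genes and 0.67 over the 8519 genes with a mean of at least 100. Nr2f6 itself had 0 normalized counts in all 6 Nr2f6-/- libraries and in the wild-type libraries 20, 101 and 36 with IgG2b and 76, 201 and 26 with aPDL1. The 10 T cell markers were above 0 in every group, with summed levels from 56511 to 88954 normalized counts.

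A single gene, Rgs2, passed the test of the interaction at an adjusted p under 0.05, which is 0.00834% of the genes tested. Rgs2 encodes a regulator of G protein signaling that shortens signals from G protein-coupled receptors. In wild-type mice its normalized counts were 9784, 8911 and 13258 with IgG2b and 2949, 2593 and 2293 with aPDL1. In Nr2f6-/- mice they were 16714, 16245 and 12432 with IgG2b and 11739, 13072 and 12181 with aPDL1. All 3 wild-type aPDL1 libraries lay below every other library of the set, whereas the aPDL1 and IgG2b libraries of Nr2f6-/- mice overlapped. The wild-type response was a 4.04-fold fall (log2 −2.01, SE 0.19, limma adjusted p = 1.07e-05). The Nr2f6-/- response was −0.28 (SE 0.19, limma adjusted p = 0.70). The interaction was 1.73 on the log2 scale (SE 0.28, limma adjusted p = 0.0346).

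The call on Rgs2 stood near the threshold. edgeR on the recovered reads gave 1.73 with an adjusted p of 0.0551 and DESeq2 gave 1.73 with an adjusted p of 2.31e-07. Leaving out single libraries kept the interaction between 1.56 and 1.85 and ended the call in 11 of 12 cases, all but that of wild-type aPDL1 replicate 1. Rgs2 in the second set was at 3232, 2219 and 2909 in wild-type aPDL1 libraries and at 12198, 6876 and 3566 in Nr2f6-/- aPDL1 libraries. The genotypes did not overlap there either, but the Nr2f6-/- libraries spread over a wider range than in the first set, and against the same IgG2b libraries the interaction became 0.76 (limma adjusted p = 0.79). Each value given with second-set blockade libraries, here and for other genes, subtracts the 6 IgG2b libraries of the first set, so it shares them with the first-set value and is not independent of it.

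Rgs2 lies on chromosome 1 at 143999338 to 144004149 (GRCm38.p6). The 250 bases before its RefSeq start, chr1:144004150-144004399 on the minus strand, are shown because this is the one gene the interaction called. Capitals mark CGTCA or its reverse complement, a half-site of the cAMP response element and not the full element.
Rgs2 promoter: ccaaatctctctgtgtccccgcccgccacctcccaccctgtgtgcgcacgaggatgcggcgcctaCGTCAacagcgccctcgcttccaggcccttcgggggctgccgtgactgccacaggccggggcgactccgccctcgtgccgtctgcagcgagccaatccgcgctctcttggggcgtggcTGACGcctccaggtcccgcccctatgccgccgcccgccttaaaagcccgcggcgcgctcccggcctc
CGTCA occurs here 2 times, starting 185 and 67 bases before the RefSeq start (positions -185 and -67), and on either strand in 17.8% of 32851 RefSeq promoters of this length. The letters AGGTCA, a core bound by many nuclear receptors, TGANTCA of AP-1 and GGAAA of NFAT are not in this window on either strand. They occur in 14%, 6.75% and 55.6% of the promoters.

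**Figure D1:**
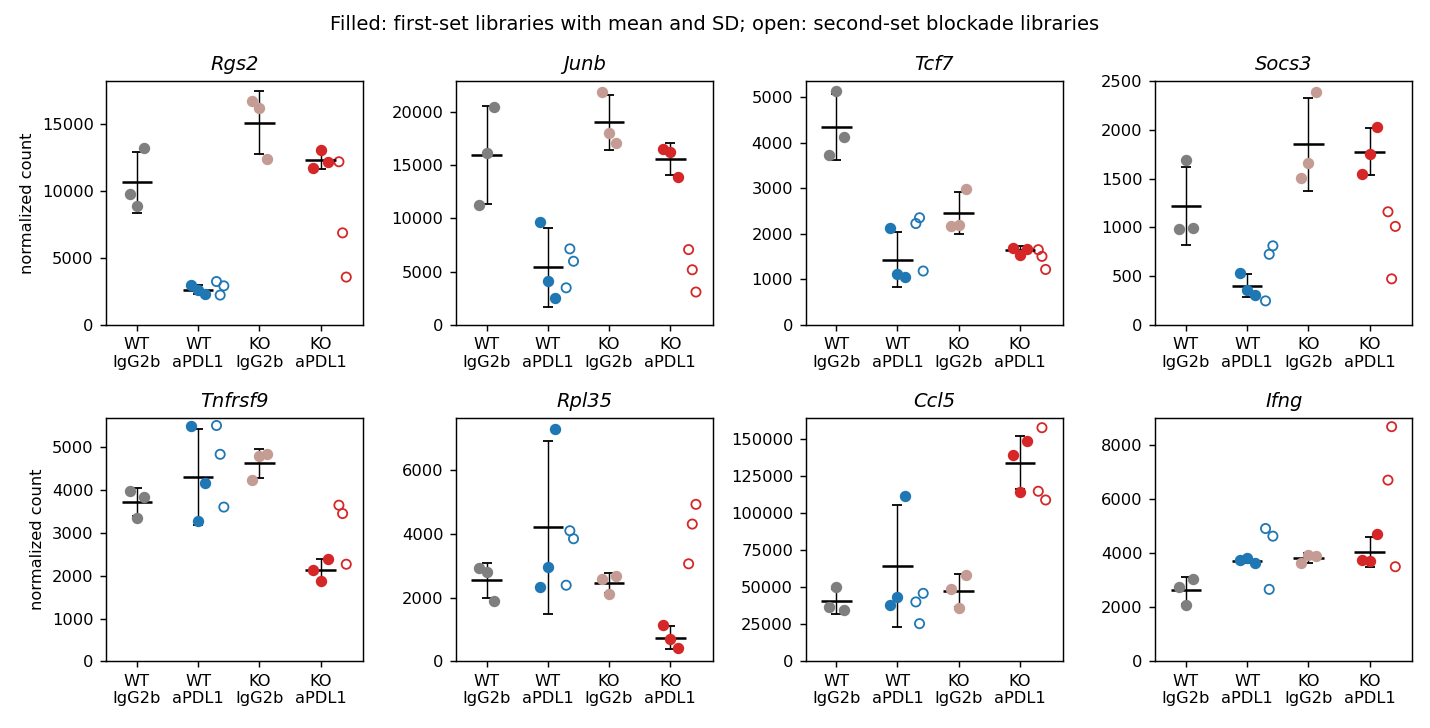
Normalized counts (y axis, linear, from 0) of 8 genes in the 4 groups, where WT is wild type and KO is Nr2f6-/-. Filled points are the 12 first-set libraries with their mean and SD, and open points are second-set aPDL1 libraries. Rgs2 in wild-type aPDL1 libraries, between 2293 and 2949, lies below all other first-set libraries, while Rpl35 in Nr2f6-/- aPDL1 libraries is low in the first set only.

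Each response on its own called more genes than their difference. In wild-type mice blockade changed 43 genes (0.359% of those tested), of which 40 fell and 3 rose. In Nr2f6-/- mice it changed 17 genes (0.142%), of which 12 fell and 5 rose. These counts do not show that the genotypes differ, since that is tested by the interaction alone. An unadjusted p under 0.05 for the interaction was reached by 800 genes, 6.67% of those tested, 433 with a positive and 367 with a negative sign (3.61% and 3.06%). DESeq2, the tool named in the study's methods, called 140 genes on the recovered reads, 61 positive and 79 negative, while edgeR called 0 and had 839 at an unadjusted p under 0.05. DESeq2 took every gene with any read and edgeR applied its own filter, so these counts are not shares of the genes tested by limma. Over all tested genes the median interaction was 0.10, and 6467 genes (53.9%) were above 0. Scaling every library to the same total moved that median to 0.26, so list medians below are to be read against it.

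**Figure D2:**
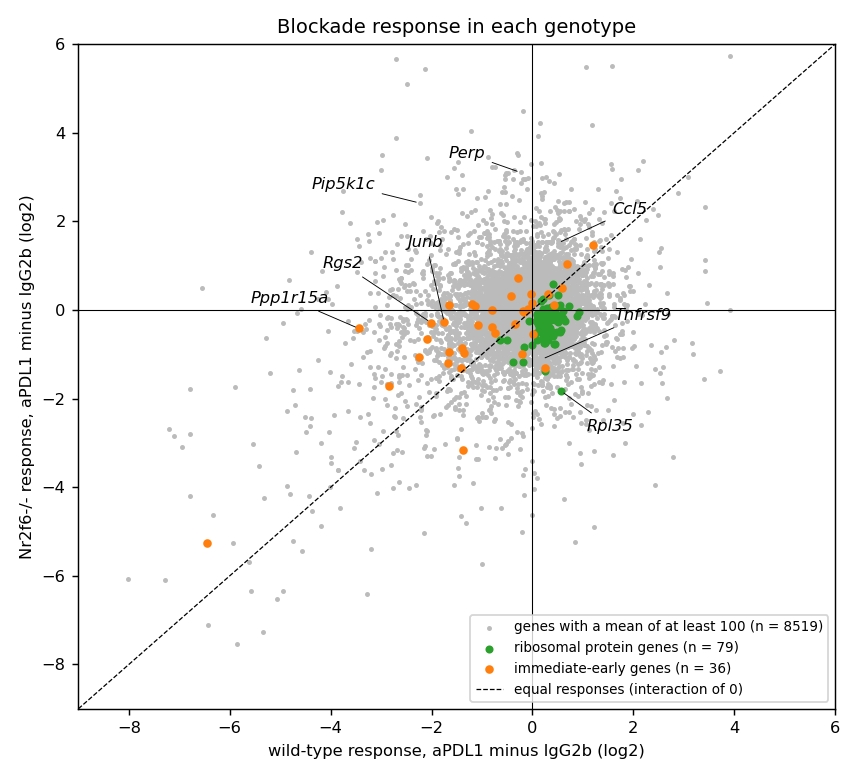
Wild-type response (x axis, log2) against Nr2f6-/- response (y axis, log2) of the 8519 genes with a mean of at least 100, with ribosomal protein genes in green and immediate-early genes in orange. Genes above the dashed diagonal have a positive interaction, as Rgs2 does with responses of −2.01 and −0.28, and most ribosomal protein genes lie below it.

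Immediate-early and activation-induced genes, which T cells switch on within minutes to hours of receptor engagement, formed the list to which Rgs2 belongs. Of its 37 tested members, 31 had a positive and 6 a negative interaction, with a median of 0.42 against 0.10 for all genes. The median was 0.19 with second-set blockade libraries, with 24 above and 13 below 0. Leaving out single libraries gave medians from 0.32 to 0.71, the highest without Nr2f6-/- IgG2b replicate 2. With an unadjusted p under 0.05 there were 8 positive members and 2 negative ones (21.6% and 5.41%), against 3.61% and 3.06% of all genes. In wild-type mice 8 members (21.6%) fell at an adjusted p under 0.05, against 0.334% of all genes tested. None of the members, 0 of 37, fell in Nr2f6-/- mice by limma at that threshold, against 0.1% of all genes. At so low a share no call among 37 members sets the list apart. In Nr2f6-/- mice 10 members had a negative response at an unadjusted p under 0.05, against 5.87% of all genes. The median response was −0.81 in wild-type and −0.32 in Nr2f6-/- mice. The mean level of the list, on the log2 scale relative to the 12 libraries, was 0.26, 0.33 and 0.29 in wild-type IgG2b libraries and −0.44, −0.91 and −0.98 in wild-type aPDL1 libraries. It was 0.40, 0.52 and 0.54 in Nr2f6-/- IgG2b libraries and −0.01, −0.01 and 0.00 in Nr2f6-/- aPDL1 libraries. The list lay lower with aPDL1 than with IgG2b in both genotypes, without overlap, and lowest in the wild-type aPDL1 libraries. In the second set the genotypes overlapped, at −1.70, −0.89 and −0.57 in wild-type and −0.46, −0.37 and −1.04 in Nr2f6-/- aPDL1 libraries.

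The 8 members called in wild-type mice, named here after their values were seen where the rule did not pick them, were Rgs2, Ppp1r15a, Junb, Tnfaip3, Nfkbiz, Dusp1, Fos and Fosl2. In Nr2f6-/- mice the groups of Rgs2 and Ppp1r15a overlapped. For the others named, all Nr2f6-/- aPDL1 libraries lay below the Nr2f6-/- IgG2b libraries. Junb, an AP-1 subunit, had 11275, 16130 and 20462 normalized counts in wild-type IgG2b and 9618, 4064 and 2505 in wild-type aPDL1 libraries. The Nr2f6-/- values of Junb were 21886, 18031 and 17094 with IgG2b and 16558, 16264 and 13878 with aPDL1. Its interaction was 1.47 (SE 0.45, limma adjusted p = 0.58). The wild-type aPDL1 libraries varied widely among themselves, and without the highest of them, replicate 1, Junb reached 2.0 with a limma adjusted p of 0.0253. With second-set blockade libraries it had the opposite sign, −0.42. Ppp1r15a, a stress-induced subunit that directs a phosphatase to the translation factor eIF2α, had an interaction of 3.03 (limma adjusted p = 0.51). It was at 146, 86 and 22 in wild-type aPDL1 libraries and at 458 or above in all other first-set libraries. Tnfaip3 and Nfkbiz, an inhibitor and a nuclear cofactor of NF-κB, had interactions of 1.44 and 1.20, the phosphatase gene Dusp1 0.72, Fos 1.13 and Fosl2 0.11. Egr1, a transcription factor gene induced through MAP kinase signaling, had a wild-type response of −1.14 and an Nr2f6-/- response of 0.08, neither of which passed the test.

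Of the 6 members with the opposite sign, the lowest was Fosb, an AP-1 subunit, at −1.79 (SE 1.07), and 1.31 with second-set blockade libraries. Those with an unadjusted p under 0.05 were Cd69, an early surface marker of activation, at −1.57, and Nfkbia, the NF-κB inhibitor IκBα, at −0.79. Cd69 was at 2234, 1821 and 1539 in Nr2f6-/- IgG2b libraries and at 670, 933 and 646 with aPDL1, while its wild-type groups overlapped. Among other RGS genes, which were added for context, Rgs1 had an interaction of 1.0 (SE 0.37, limma adjusted p = 0.65), and Rgs16 had 0.11. Macrophage and monocyte transcripts, in which several of these immediate-early genes are also active, were lower with blockade in both genotypes. The sum of their 16 markers went from between 17719 and 21723 normalized counts to between 1807 and 4823 in wild-type libraries, and from between 10285 and 14005 to between 1447 and 3065 in Nr2f6-/- libraries. In these bulk samples fewer cells of a type and less RNA per cell cannot be told apart, and the part of these transcripts in the immediate-early values was not tested.

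**Figure D3:**
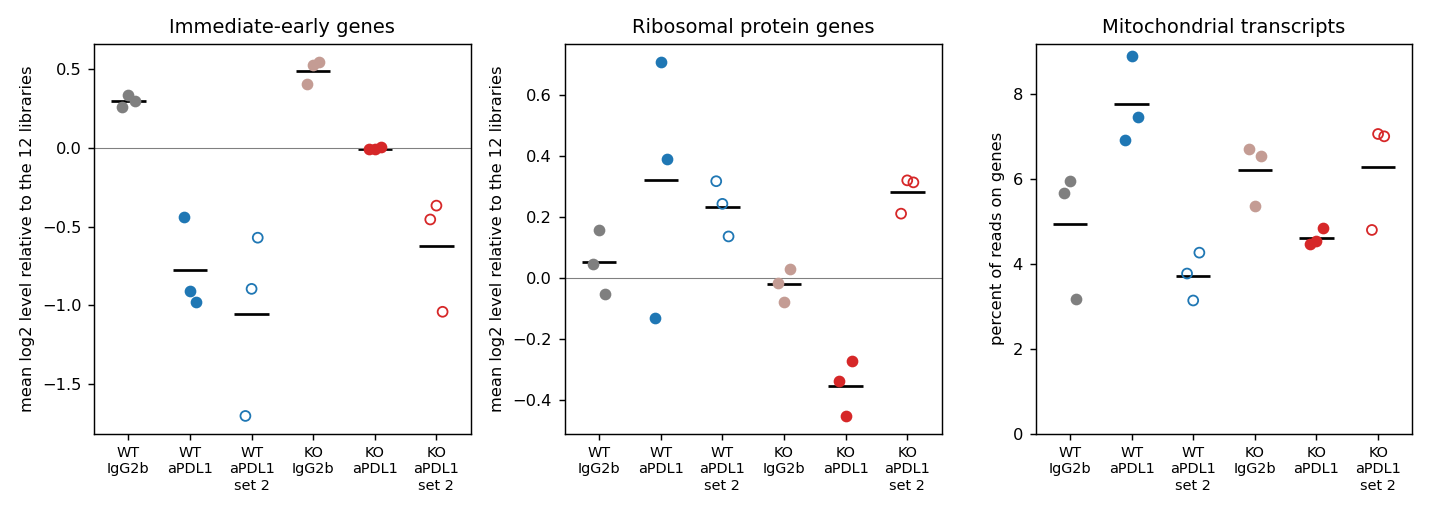
Mean log2 level of the immediate-early list and of the ribosomal protein list relative to the 12 first-set libraries, and the percentage of reads from mitochondrial transcripts, for each library (WT, wild type; KO, Nr2f6-/-). Filled points are first-set and open points second-set libraries, and lines are group means. Ribosomal protein levels of Nr2f6-/- aPDL1 libraries lie between −0.45 and −0.27 in the first set and between 0.21 and 0.32 in the second.

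The 12 genes with the highest moderated t among those with a mean of at least 100 were Rgs2, Perp, Pip5k1c, Igf2r, Gm26244, Pde7a, Jak2, Map4, Ppp1r15a, 5830416P10Rik, Opa1 and Rprd2. Except for Rgs2, their limma adjusted p-values were between 0.47 and 0.51, and DESeq2 called 10 of the 12. Perp, a membrane protein of cell adhesion and apoptosis, was at 85, 60 and 111 normalized counts in Nr2f6-/- IgG2b libraries and at 454, 923 and 886 in Nr2f6-/- aPDL1 libraries. Its wild-type libraries lay between 245 and 508 under both antibodies and overlapped. Perp thus rose in Nr2f6-/- mice (log2 3.10, limma adjusted p = 0.0204), with a wild-type response of −0.24 and an interaction of 3.34 (SE 0.77). Its interaction with second-set blockade libraries was 3.16. Jak2, the kinase that signals downstream of several cytokine receptors, was at 1118, 1566 and 1097 with IgG2b and 546, 1064 and 576 with aPDL1 in wild-type mice. Jak2 in Nr2f6-/- mice was at 734, 621 and 657 with IgG2b and 1266, 1292 and 1075 with aPDL1. Both genotypes separated by treatment, in opposite directions, with an interaction of 1.69 (SE 0.46, limma adjusted p = 0.51).

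Pde7a, a phosphodiesterase that degrades cyclic AMP, followed the same order, from between 1467 and 1912 to between 799 and 1265 in wild-type libraries and from between 518 and 906 to between 1075 and 1794 in Nr2f6-/- libraries. Its interaction was 1.66 (SE 0.45). Igf2r, the receptor for mannose 6-phosphate and insulin-like growth factor, had 1.41, Opa1, a GTPase of mitochondrial inner membrane fusion, 3.13, and Rprd2, a partner of RNA polymerase II, 2.12. Map4, a microtubule-associated protein, had 1.49. Pip5k1c, a kinase that makes the membrane lipid PIP2, was between 317 and 504 with IgG2b and between 33 and 164 with aPDL1 in wild-type mice, and between 45 and 212 with IgG2b and between 350 and 581 with aPDL1 in Nr2f6-/- mice. Gm26244 and 5830416P10Rik had the lowest wild-type aPDL1 values, at 22 and 2 normalized counts or less.

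The 12 genes with the lowest moderated t included Morf4l2, Clcc1, Rpl35, Tnfrsf9, Rhbdd2, Sarnp, Mat2a, Lrrc58, Hmgb2, Msmo1 and mt-Rnr2. Their limma adjusted p-values were between 0.45 and 0.49, and DESeq2 called all 12. Tnfrsf9, which encodes the costimulatory receptor CD137 of activated T cells, was at 4245, 4806 and 4837 in Nr2f6-/- IgG2b libraries and at 2142, 1890 and 2397 with aPDL1. In wild-type mice it was at 3983, 3355 and 3834 with IgG2b and at 5500, 3271 and 4178 with aPDL1. The fall in Nr2f6-/- mice passed the test (log2 −1.11, limma adjusted p = 0.0407), the wild-type groups overlapped, and the interaction was −1.30 (SE 0.31). Tnfrsf9 had −0.90 with second-set blockade libraries and the same IgG2b libraries.

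Morf4l2, a subunit of chromatin-modifying complexes, was between 354 and 504 with IgG2b and between 541 and 1582 with aPDL1 in wild-type libraries and was between 1285 and 2311 with IgG2b and between 485 and 713 with aPDL1 in Nr2f6-/- libraries. The interaction was −2.65 (SE 0.54, limma adjusted p = 0.45), and without wild-type aPDL1 replicate 1 it passed the test. Mat2a, which makes S-adenosylmethionine, had −1.32, and Msmo1, an enzyme of cholesterol synthesis, −1.78. Clcc1, a chloride channel of the endoplasmic reticulum, had −2.88, Sarnp, an mRNA export factor, −1.80, Rhbdd2 −3.66 and Lrrc58 −1.54. Hmgb2, a chromatin protein of proliferating cells, was between 2759 and 3196 with IgG2b and between 5007 and 5801 with aPDL1 in wild-type mice, and overlapped in Nr2f6-/- mice. Its interaction was −1.34 (SE 0.34), and 0.31 with second-set blockade libraries.

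Genes whose groups separated in opposite directions were few, and with 3 libraries a group some would do so by chance alone. How many of those below did so was not tested. In 44 genes (0.367%) all 3 aPDL1 libraries lay above the IgG2b libraries in Nr2f6-/- mice and below them in wild-type mice, and in 48 genes (0.4%) the order was the reverse. Among genes with a mean of at least 100 the counts were 31 and 43 of 8519. The 10 with the largest absolute interaction included Nfia, Fech, Pip5k1c, Maml1 and Ice1 on the positive side and Fam69b, Bcdin3d, Lsm5 and Epdr1 on the negative side. Nfia, a transcription factor of the nuclear factor I family, was at 297, 159 and 154 with IgG2b and 105, 0 and 139 with aPDL1 in wild-type mice. Nfia in Nr2f6-/- mice was at 18, 12 and 51 with IgG2b and 389, 135 and 358 with aPDL1. The interaction was 6.49 (SE 2.07, limma adjusted p = 0.58), with 1 wild-type aPDL1 library, replicate 2, at 0. Fech, the last enzyme of heme synthesis, had 4.88, and Maml1, a coactivator of Notch, 4.47. Fech and Ice1 were also at 0 in wild-type aPDL1 replicate 2, and without that library Nfia, Fech and Ice1 had 4.17, 2.89 and 1.34. Lsm5, a subunit of an RNA-binding ring, had −4.40. These 10 genes had means between 131 and 421 normalized counts, and with second-set blockade libraries Fam69b took the opposite sign, at 1.30.

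Cytosolic ribosomal protein genes, whose products build the ribosome, leaned strongly to the negative side. Of 80 tested members, 76 had a negative and 4 a positive interaction, where 46.1% of all genes tested were below 0. At an unadjusted p under 0.05, 33 (41.2%) had a negative interaction, against 3.06% of all genes. The median was −0.59, with a median response of 0.27 in wild-type and −0.25 in Nr2f6-/- mice. Relative to the 12 libraries, their mean log2 level was 0.05, 0.16 and −0.05 in wild-type IgG2b libraries, −0.13, 0.71 and 0.39 in wild-type aPDL1 libraries, −0.02, −0.08 and 0.03 in Nr2f6-/- IgG2b libraries and −0.34, −0.45 and −0.27 in Nr2f6-/- aPDL1 libraries. The Nr2f6-/- aPDL1 libraries were the lowest of the set, and the wild-type groups overlapped. Rpl35, of the large subunit, fell in Nr2f6-/- mice (log2 −1.83, limma adjusted p = 0.0441) and had an interaction of −2.39 (SE 0.52).

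The direction of this list was not the same with the other blockade libraries. Against the same IgG2b libraries, the second set gave a median of 0.14, with 51 members above and 29 below 0, and the level of the second-set Nr2f6-/- aPDL1 libraries was 0.21, 0.32 and 0.31. Under quantile normalization and same-total scaling of the first set the median stayed negative, at −0.36 and −0.42, and it ran from −0.76 to −0.37 when single libraries were left out.

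Mitochondrial transcripts also had negative interactions, but their order over the libraries differed from that of ribosomal protein genes. Their share of the reads was between 3.18% and 5.96% in wild-type IgG2b, between 6.91% and 8.90% in wild-type aPDL1, between 5.36% and 6.72% in Nr2f6-/- IgG2b and between 4.47% and 4.85% in Nr2f6-/- aPDL1 libraries. In the second set the order was reversed, with 3.14% to 4.27% in wild-type and 4.80% to 7.06% in Nr2f6-/- aPDL1 libraries. Of the 8 mitochondrial genes with a mean of at least 1000, 8 had a negative interaction and 5 of these an unadjusted p under 0.05. Over all genes tested these shares were 46.1% and 3.06%. mt-Rnr2, the large mitochondrial ribosomal RNA, had −1.47, and mt-Nd2, a subunit of respiratory complex I, rose in wild-type mice (log2 1.33, limma adjusted p = 0.00262) with an interaction of −0.97. With second-set blockade libraries mt-Rnr2 and mt-Nd2 were at 0.53 and 0.14. The median interaction also rose with transcript length among the 8229 genes with a mean of at least 100 and a known length, from −0.13 in the shortest of 4 equal bins over 0.04 and 0.09 to 0.16 in the longest bin, and from −0.10 to 0.16 without ribosomal protein genes. Ribosomal protein genes are short, with a median longest transcript of 1109 bases, and the part of length or of the reads' composition in their interaction was not tested.

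Glycolysis and hypoxia response genes, which fuel effector T cells, leaned to the negative side. Of 32 members, 27 had a negative and 5 a positive interaction, and the median was −0.51. An unadjusted p under 0.05 was reached by 5 negative members (15.6%), against 3.06% of all genes. The median response was 0.21 in wild-type and −0.30 in Nr2f6-/- mice. Without wild-type aPDL1 replicate 2 the median was −0.25 and without replicate 3 of that group −0.82, and the mean levels of the list overlapped between the aPDL1 groups. With second-set blockade libraries, against the shared IgG2b libraries, the median was −0.60 with 27 members below and 5 above 0, and with same-total scaling of the first set it was −0.34 with 25 below. Tpi1, a glycolytic enzyme, was at 12924, 13525 and 9958 with IgG2b and 6935, 9111 and 7519 with aPDL1 in Nr2f6-/- mice. Its wild-type groups, from 8741 to 12846 and from 9829 to 17590, overlapped. The interaction of Tpi1 was −0.87 (SE 0.31, limma adjusted p = 0.61), and that of Eno1, enolase, was −2.29 (SE 0.84).

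**Figure D4:**
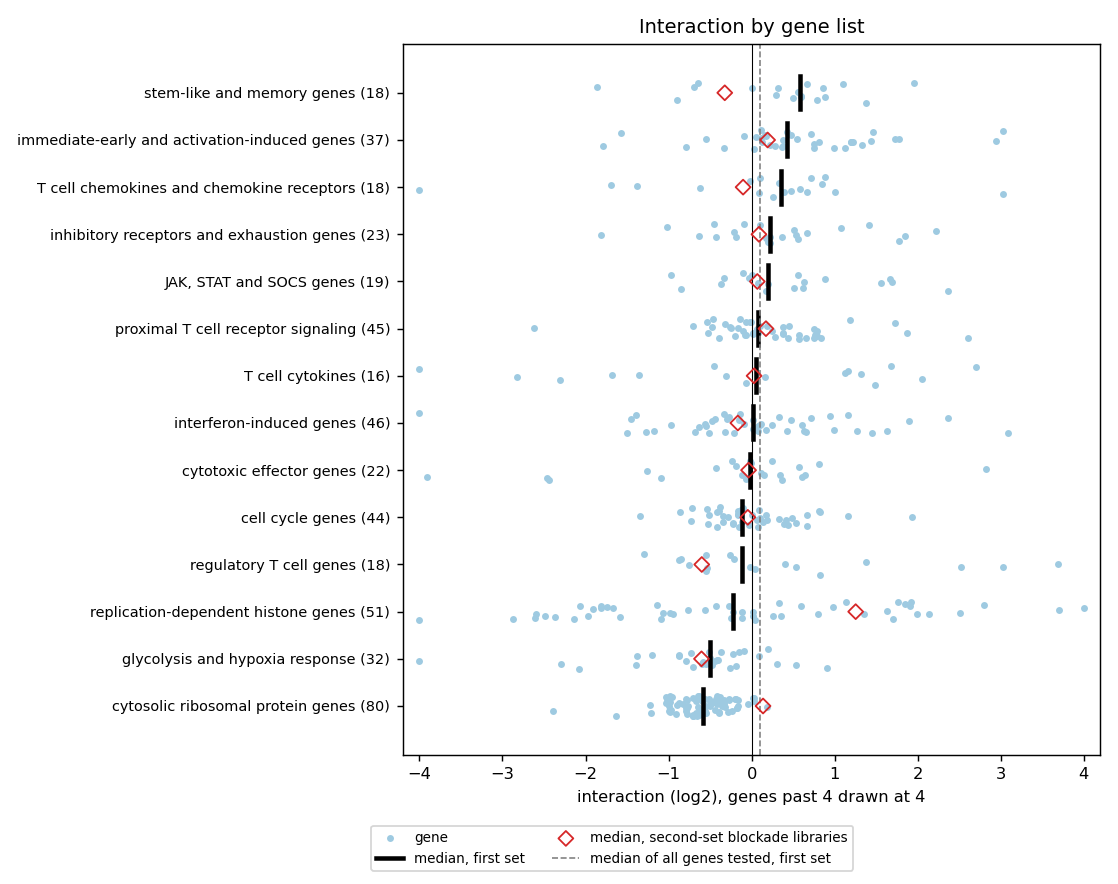
Interaction (x axis, log2) of each tested gene in 14 lists, with the number of tested members in parentheses. Black bars are list medians in the first set, red diamonds the medians with second-set blockade libraries, and the dashed line the median of all tested genes, 0.10. The ribosomal protein, stem-like, chemokine, histone and interferon-induced medians change sign between the sets, which share their IgG2b libraries.

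Genes of stem-like and memory T cells, the cells from which blockade responses are renewed, had a positive interaction in 14 of 18 members, with a median of 0.58. An unadjusted p under 0.05 was reached by 3 positive members (16.7%), against 3.61% of all genes. Tcf7, which encodes their defining factor TCF1, was at 3734, 5137 and 4134 with IgG2b and at 2126, 1104 and 1046 with aPDL1 in wild-type mice, and fell there (log2 −1.67, limma adjusted p = 0.00417). In Nr2f6-/- mice it was at 2173, 2200 and 2977 with IgG2b and 1694, 1530 and 1668 with aPDL1. Neither genotype's groups overlapped, and the wild-type IgG2b libraries stood highest. The interaction of Tcf7 was 1.10 (SE 0.38, limma adjusted p = 0.59). Foxp1, a factor of T cell quiescence, had 0.86. With second-set blockade libraries the list's median was −0.32, with 8 of 18 members above 0, while Tcf7 had 0.48 and Foxp1 1.63.

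Chemokine and chemokine receptor genes had a positive interaction in 13 of 18 members, with a median of 0.36, and −0.10 with second-set blockade libraries. Ccl5, a chemokine that CD8+ effector cells release, was at 48717, 36092 and 58105 with IgG2b and 139215, 113986 and 148251 with aPDL1 in Nr2f6-/- mice, and rose there (log2 1.51, limma adjusted p = 0.038). In wild-type mice it was at 36841, 50158 and 34623 with IgG2b and 37734, 43498 and 111441 with aPDL1, so that 1 wild-type aPDL1 library lay close to the lowest Nr2f6-/- aPDL1 library and the others within the range of IgG2b libraries. The interaction of Ccl5 was 1.0 (SE 0.41, limma adjusted p = 0.70). Ccr6, a receptor for CCL20, had −4.62, with 2 Nr2f6-/- aPDL1 libraries at 0.

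T cell cytokine genes divided evenly, 8 of 16 above and 8 below 0, with a median of 0.05. Ifng, the gene of interferon gamma, was at 2730, 2076 and 3061 with IgG2b and at 3744, 3810 and 3617 with aPDL1 in wild-type mice. Its Nr2f6-/- values were 3620, 3934 and 3900 with IgG2b and 3736, 3707 and 4700 with aPDL1. The wild-type groups did not overlap and the Nr2f6-/- groups did, but the interaction of −0.45 (SE 0.29) had a limma adjusted p of 0.81. Il2 had 1.12 and Tnf 2.70, and neither passed the test. Tnf was at 0 in wild-type aPDL1 replicate 2, and without it had 0.024. Flt3l, a growth factor for dendritic cells, separated in opposite directions, at 1088, 1044 and 875 with IgG2b and 572, 630 and 847 with aPDL1 in wild-type mice and at 927, 1150 and 802 with IgG2b and 1220, 1616 and 2074 with aPDL1 in Nr2f6-/- mice. The interaction of Flt3l was 1.32 (SE 0.44, limma adjusted p = 0.59), and 0.98 with second-set blockade libraries. Cd40lg, a helper ligand, had −4.01 with 1 Nr2f6-/- aPDL1 library at 0.

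Cytotoxic effector genes lay close to the median of all genes, at −0.02, with 10 of 22 members above 0, and Lamp1, a marker of degranulation, had 0.81. Inhibitory receptor and exhaustion genes had a median of 0.22, with 15 of 23 above 0. In this list Tox2, an exhaustion factor, was at 326, 164 and 326 with IgG2b and 1413, 1152 and 1730 with aPDL1 in Nr2f6-/- mice, while the wild-type groups overlapped. Tox2 had an interaction of 1.77 (SE 0.73) and Cd101 2.22. The interaction was −0.19 for Pdcd1, the gene of PD-1, 0.67 for Ctla4 and −0.10 for Cd274, the gene of PD-L1, all within 1.5 SE of 0. The 18 genes of regulatory T cells had a median of −0.12, with 8 above 0.

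Genes of proximal T cell receptor signaling had a median of 0.08, with 26 of 45 above 0. An unadjusted p under 0.05 was reached by 5 positive members (11.1%), against 3.61% of all genes. Nfatc2 and Ppp3ca, which encode an NFAT factor and a catalytic subunit of calcineurin, had interactions of 1.72 (SE 0.67) and 1.18 (SE 0.50), with wild-type aPDL1 libraries below all wild-type IgG2b libraries for both. Interferon-induced genes had a median of 0.02, with 24 of 46 above 0, and −0.17 with second-set blockade libraries, with 18 above 0. Among them Tap2, a peptide transporter, had 1.89 and the exonuclease gene Isg20 −1.40. JAK, STAT and SOCS genes had a median of 0.20, with 13 of 19 above 0. Socs3, a feedback inhibitor of cytokine receptors, fell in wild-type mice from between 988 and 1689 to between 311 and 533 (limma adjusted p = 0.0273). In Nr2f6-/- mice Socs3 was between 1505 and 2397 with IgG2b and between 1553 and 2033 with aPDL1, and its interaction was 1.56 (SE 0.45, limma adjusted p = 0.53). Socs3 had 0.03 with second-set blockade libraries. Stat3 had the opposite sign, −0.97, with wild-type libraries higher and Nr2f6-/- libraries lower under aPDL1, and 0.07 with the second set.

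Cell cycle genes had a median of −0.11, with 20 of 44 above 0. Replication-dependent histone genes, of which 51 of 68 were tested, had a median of −0.22, with 23 above 0, and 1.25 with second-set blockade libraries. Among them Hist1h1e had −2.59, Hist1h1c −1.81 and Hist1h4i 1.92. Their near-identical copies can share reads, so single histone genes are uncertain.

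Marker lists of cell types were read for the composition of the sorted cells. The 10 T cell markers had a median interaction of 0.04. Of the 16 macrophage and monocyte markers 10 were above 0, with a median of 0.39 that became −0.47 with second-set blockade libraries. The 4 tested B cell markers were above 0, and so were all 6 tested melanoma markers, with medians of 3.94 and 0.75. These medians were 3.47 and −0.40 with second-set blockade libraries, and the melanoma median ran from 0.17 to 1.66 when single libraries were left out. The summed B cell markers lay between 2051 and 6992 normalized counts in all groups, with at least 2 of 9 at 0 in each group. Ighm and Igkc made up most of these sums, at 3691 and 232 of 3930 in Nr2f6-/- IgG2b replicate 1. The other B cell markers added little in that group, so the median of 3.94 rests in part on low counts. The 4 interactions ran from 0.10 to 8.37. The 5 tested erythroid markers had a median of 5.06 at sums between 0 and 2221 normalized counts, and −2.45 with second-set blockade libraries. The summed NK cell markers were lower with blockade in both genotypes, from between 3079 and 3359 to between 512 and 1347 normalized counts in wild-type and from between 2601 and 2906 to between 825 and 1140 in Nr2f6-/- libraries. Fcer1g and Tyrobp made up most of these sums, at 2437 and 612 in wild-type IgG2b replicate 1. Ncr1 went the other way, at 0 in all IgG2b libraries and detected with aPDL1 in both genotypes. Which cells carried these transcripts was not tested. The 3 tested NK cell markers had a median interaction of 1.17, and −1.81 with second-set blockade libraries. Summed platelet markers were between 2300 and 2611 in wild-type IgG2b and between 268 and 703 in Nr2f6-/- IgG2b libraries, and at most 211 with aPDL1. Pf4 made up most of the wild-type IgG2b sums, at 2158, 2142 and 2269, and was the only marker detected in Nr2f6-/- IgG2b libraries. Itga2b and Gp1bb went the other way, at 0 in all IgG2b libraries and detected with aPDL1 in both genotypes. The 2 tested platelet markers had interactions of opposite sign, −0.67 and 7.48, so their median of 3.40 describes neither. The medians were 0.18 for 8 dendritic cell, −0.97 for 2 neutrophil (−2.87 and 0.93) and −0.15 for 6 stroma and endothelium markers. The part of these cell types in the interactions given above was not tested. Cd4 and Cd8a had interactions of 0.20 and −0.03. The Cd8a:Cd4 ratio, on the log2 scale, was 0.89 ± 0.33 in wild-type IgG2b, 1.80 ± 1.06 in wild-type aPDL1, 1.16 ± 1.04 in Nr2f6-/- IgG2b and 1.85 ± 0.19 in Nr2f6-/- aPDL1 libraries (SD, n = 3). Its interaction was −0.23, and an exact two-sided permutation test over 400 reassignments of genotype within treatment gave p = 0.79, where the smallest possible value was 0.005. The null of this test is no genotype difference under either antibody, which is narrower than no interaction.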

How the data were processed

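The 3′ QuantSeq reads were trimmed by the authors (Cutadapt, Trimmomatic) and discarded below 22 nucleotides. STAR placed them on mm10, Bowtie2 took those left over, only primary alignments were kept, and HTSeq-count tallied them per gene ahead of DESeq2. Versions, annotation and strand setting are not given in the sources used here, so overlapping and antisense genes and near-identical copies are uncertain. The deposited values are a signal per gene and library, the read count divided by a size factor (0.823 to 1.21 in the 12 libraries). Multiplying by that factor gave whole reads, within 0.01, for 100% of the values. Replicates were not pooled and all 18 value columns were used.

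Groups and replicate numbers come from the sample labels. log2(normalized count + 1) of genes averaging 10 or more over the 12 libraries was fitted with limma 3.58.1 in R 4.3.3 (4 group means, eBayes with trend, two-sided, Benjamini-Hochberg adjustment over 11990 genes, threshold 0.05). edgeR 4.0.16 and DESeq2 1.42.0 on the recovered reads, other pseudocounts, filters, scalings, library sets, weights, a replicate block and leaving out each library were alternatives, and the fit was tested on simulated data. List medians under these alternatives were added after seeing the data. DESeq2 was given every gene with any read and edgeR applied its own expression filter, so their counts and those of limma cover different genes. No libraries were identical (0 of 66 pairs), and the mean correlation was 0.827 within and 0.811 between groups. Floors cover counting error only, since the reads carry no molecular identifiers here.

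Named genes were Nr2f6, Ifng, Il2, Tnf, Pdcd1, Cd274, Ctla4, Cd4 and Cd8a, every gene called, the 12 highest and 12 lowest moderated t at a mean of at least 100, the 10 largest interactions among genes separating in opposite directions, and in each list the 2 highest and 2 lowest t, of which those of pathway lists with an unadjusted p under 0.05 are given. Rgs1, Rgs16, Junb, Tnfaip3, Nfkbiz, Dusp1, Fos, Fosl2, Fosb, Egr1 and mt-Nd2 were named after their values were seen, and some genes the rule picked are not reported here. Members and lists were chosen with earlier results of these data known. Positions and the promoter are from RefSeq on GRCm38.p6, and transcript lengths, found for 95.6% of tested genes, from GENCODE M21.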

Additional observations from a re-analysis of the deposited data

Results flagged for a closer look

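Rgs2 was the one result singled out by a test of the difference between the genotypes' responses: its interaction was 1.73 on the log2 scale, with a wild-type response of −2.01 and an Nr2f6-/- response of −0.28 and a limma adjusted p of 0.0346. No group was large enough for a search of single libraries far from the rest.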

How the results depend on the processing

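The interaction called 1 gene, Rgs2, with the settings reported. It called 0 with no filter, with the filter taken over all 18 libraries, in either fit of all 18 libraries, with second-set blockade libraries, with a replicate block and with edgeR, 140 with DESeq2 and 800 without adjustment. At an unadjusted p under 0.05 the limma settings with 0 calls had 984, 822, 607, 639, 827 and 778 genes in that order, and edgeR had 839. The adjusted p of Rgs2 ran from 2.31e-07 to 0.97 over its alternatives, and its sign did not change in any of them. Leaving out single libraries gave between 0 and 4 calls, 4 without wild-type aPDL1 replicate 1, where Junb, Morf4l2 and Tap2 joined Rgs2.

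The 43 calls of the wild-type response became 74 with a pseudocount of 10, 20 with no filter, 13 with all 18 libraries and a term for the set, 12 with second-set blockade libraries, 28 with edgeR, 192 with DESeq2 and 1090 without adjustment. Leaving out single libraries gave between 5 and 67, with a change of over 1.5 times without any Nr2f6-/- IgG2b library (21, 28 and 28), any wild-type IgG2b library (18, 5 and 13) or wild-type aPDL1 replicate 1 (67) or 2 (18). The 17 calls of the Nr2f6-/- response became 42 with a pseudocount of 10, 1 with no filter, 8 with the filter over 18 libraries, 46 with quantile normalization, 42 and 29 with all 18 libraries without and with that term, 128 with second-set blockade libraries, 47 with sample weights, 327 with DESeq2 and 1160 without adjustment. Single libraries left out gave between 2 and 26, with a change of over 1.5 times without any Nr2f6-/- IgG2b library (2, 3 and 2), any Nr2f6-/- aPDL1 library (7, 9 and 10), any wild-type IgG2b library (6, 2 and 7) or wild-type aPDL1 replicate 2 (26). The cause of these changes was not tested.

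With second-set blockade libraries the interaction turned sign for Ccr6 (1.34), Cd4 (−0.52), Cd40lg (1.67), Cd69 (0.14), Cd8a (0.47), Dusp1 (−0.032), Fam69b (1.30), Fosb (1.31), Hist1h1c (0.82), Hmgb2 (0.31), Ifng (0.024), Junb (−0.42), Pdcd1 (0.11), Rpl35 (0.30), Stat3 (0.069), Tap2 (−0.38), mt-Nd2 (0.14) and mt-Rnr2 (0.53). The log2 Cd8a:Cd4 ratio, −0.23, became 1.0 with them and 0.38 with all 18 libraries, and ran from −0.76 to 0.38 when single libraries were left out. In both 18-library fits Cd4 had −0.16 and Cd8a 0.22. Cd8a had 0.074 with quantile normalization and 0.14 with scaling to the same total, which gave Cd274 0.070. Single libraries left out turned Cd274 (−0.42 to 0.13), Cd4 (−0.23 to 0.56), Cd8a (−0.20 to 0.15), Fosl2 (−0.19 to 0.39) and Rgs16 (−0.093 to 0.34). The cause was not tested.

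Deviations of same-numbered replicates had correlations between −0.018 and 0.027 over 18 pairs, and the numbers were not taken as pairs. Yet the best match of a library, among the 3 of another group, had its own number in 22 of 36 cases. These are most of the cases, and a random pick among 3 would match in fewer, so a weak pairing may exist. The 36 cases are not independent, since each pair of groups is matched from both sides. A replicate block gave 0, 38 and 21 calls for the interaction and the wild-type and Nr2f6-/- responses, with a limma adjusted p of 0.096 for Rgs2. With 3 libraries a group, a median SE of 0.97 limits what an interaction can show, and differences several times their SE could go uncalled. Morf4l2 was not called at −2.65 with an SE of 0.54 (limma adjusted p = 0.45). Pip5k1c was not called at 4.65 with an SE of 1.09 (limma adjusted p = 0.47). The single call therefore does not mean that larger interactions were absent in other genes.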
